A study of Mus musculus with 6 samples.

Results

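The genes described here encode the 26S proteasome and the proteins that build and activate it. They were taken by name from a table of RNA-sequencing (RNA-seq) read counts: every gene whose symbol is Psm, then a, b, c, d, e or g, then a number. Of 55367 genes in the table, 47 had such a name, and 45 of these had a mean of at least 10 counts over the libraries. All 45 were among the 16976 genes tested, and GENCODE annotates all 45 as protein coding, on 16 chromosomes. Psma8, a testis subunit, was just outside with a mean of 9.83 counts (14, 11 and 17 in WT, 5, 3 and 9 in Fmr1-KO), and Psmb11, the thymus subunit, had a mean of 3.67 counts. Just inside were Psmb9 with 46.8, Psmb8 with 181 and Psmg3 with 285.

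The study compared cortical cells of wild-type (WT) mice with those of Fmr1-knock-out (Fmr1-KO) mice, which lack the RNA-binding protein FMRP and model fragile X syndrome. All mice were of the C57BL/6J background. Cortices of pups at postnatal day 1 were dissociated and the cells were grown for 2 days in vitro before poly(A) RNA was sequenced. According to the methods, ACSA-2-positive astrocytes and myelin had been depleted before plating. There were 3 WT and 3 Fmr1-KO libraries. A figure legend of the paper describes the samples as independently derived, in triplicate. Neither the labels nor the methods say whether the libraries of a genotype came from separate litters or cultures, or whether pups were pooled. The p-values measure the spread between these libraries, which may be partly technical. The knockout is not limited to one cell type, so the comparison does not separate neurons from other cells of the culture.

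The proteasome is the protease that degrades proteins tagged with ubiquitin. Its 20S core is a barrel of rings of alpha (Psma) and beta (Psmb) subunits, and 3 of the beta subunits, Psmb5, Psmb6 and Psmb7, carry the proteolytic sites. The 19S cap binds ubiquitin chains, removes them and unfolds the substrate: its base holds a ring of ATPases (Psmc), and its lid holds the deubiquitinase Psmd14. In cells exposed to interferon, Psmb8, Psmb9 and Psmb10 replace the catalytic subunits to give the immunoproteasome, which shapes peptides for MHC class I. In neurons the proteasome turns over synaptic proteins.

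Before the proteasome genes, Fmr1 itself was read as a check of the labels. Its level, in CPM (read counts scaled to library size with TMM factors, so that levels compare between libraries), was 118, 112 and 109.6 in the WT libraries and 54.2, 61.4 and 56.7 in the Fmr1-KO libraries (log2 fold-change -0.98 ± 0.04 SE, edgeR adjusted p = 2.3e-13). The groups did not overlap, and Fmr1 RNA was still counted in all 3 Fmr1-KO libraries.

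The sequences in front of the proteasome genes are shown first, because one of them recurs among the genes of the cap. RefSeq promoter windows on GRCm38, from 250 bases before to 50 bases after a gene's start, were used for 38 of the 45 genes (41 windows, since a few genes have more than 1 start). No window was used for Psmb1, Psmb2, Psmb7, Psmc3, Psmd3, Psmd7 and Psmg2. There were 4 motifs searched, each on both strands. The motif CCGGAAG, the core of the site bound by ETS family factors such as GABPA (CTTCCGG on the opposite strand), was chosen after the windows had been read. It was in 10 of 15 cap windows (66.7%) and 1 of 12 core windows (8.33%), against 8.86% of all 32851 promoter windows and 14.9% of the 15824 windows of tested genes. Among the other groups it was in 2 of 5 activator windows, 2 of 6 assembly chaperone windows and none of the 3 immunoproteasome windows. By gene, it was in 9 of the 14 cap genes with a window. The motif was picked from these same windows, and its share in the cap was not tested. Of the 6 cap genes that fell in Fmr1-KO (below), 5 had the motif, as did 4 of the 8 other cap genes with a window. A link between the motif and the fall was not tested. For the 5 that fell and had the motif, 40 bases around it are shown, 5′ to 3′ in the direction of the gene, with the motif in capitals.
Psmc1, chr12:100110157-100110196, + strand: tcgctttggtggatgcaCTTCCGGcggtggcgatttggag
Psmc2 first start, chr5:21785174-21785213, + strand: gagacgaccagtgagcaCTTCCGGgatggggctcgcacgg
Psmc2 second start, chr5:21786706-21786745, + strand: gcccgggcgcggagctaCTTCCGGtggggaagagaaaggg
Psmd2, chr16:20651609-20651648, + strand: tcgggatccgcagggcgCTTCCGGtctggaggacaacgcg
Psmd6, chr14:14120968-14121007, − strand: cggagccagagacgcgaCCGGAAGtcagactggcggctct
Psmd12, chr11:107479494-107479533, + strand: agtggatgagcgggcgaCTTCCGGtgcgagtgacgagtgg
The motif began at -28 in Psmc1, -26 in Psmd2, -45 in Psmd6 and -17 in Psmd12, where -1 is the base before the RefSeq start. Psmc2 has 2 starts in RefSeq, with a copy at -84 of the first and another at -24 of the second, which lies inside the gene. A match describes the letters only, and no binding was measured here.

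The antioxidant response element, in its short form TGACNNNGC, is the kind of site at which NRF1 (Nfe2l1) raises proteasome genes when the proteasome is inhibited. It was in 6 of the 41 windows (14.6%), a share close to the 12.4% of all promoter windows and the 13.9% of windows of tested genes. None of these matches overlapped a CCGGAAG match. They were in front of Psmb5, Psmb6, Psmc6, Psmd9, Psmd12 and Psme4, and those of the catalytic subunits Psmb5 and Psmb6 are shown with the element in capitals.
Psmb5, chr14:54618019-54618058, − strand: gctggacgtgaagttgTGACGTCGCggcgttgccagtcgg
Psmb6, chr11:70525332-70525371, + strand: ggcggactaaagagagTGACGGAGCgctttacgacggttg
The CCAAT box is bound by NF-Y in many housekeeping promoters. CCAAT was in 6 of 12 core windows (50%) and 4 of 15 cap windows (26.7%). It was in 13 of the 41 windows (31.7%), against 37.4% of all windows and also of those of tested genes. These counts are small, and the difference between core and cap was not tested.
For the interferon-inducible genes the interferon-stimulated response element was searched as GAAANNGAAA. It was in none of the 3 windows of Psmb8, Psmb9 and Psmb10, and in 5 of the 41 windows (12.2%), in front of Psmb3, Psmd4, Psmd9, Psme1 and Psmg4, against 3.44% of all windows and 2.97% of those of tested genes. The windows of Psmb8 and Psmb9 lie wholly inside the genes as GENCODE places them, so the bases around their GENCODE starts were not searched. The match of Psme1, a subunit of the interferon-inducible PA28 activator, began at base 10 from a RefSeq start. That start lies inside the gene as GENCODE places it. The window of Psmb8, the member with the largest change, held none of the 4 motifs. It lies around the RefSeq start, which is inside the gene as GENCODE places it, and its bases from 120 before to 20 after that start are shown.
Psme1, chr14:55578488-55578527, + strand: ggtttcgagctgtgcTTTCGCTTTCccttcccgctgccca
Psmb8, chr17:34198075-34198214, + strand: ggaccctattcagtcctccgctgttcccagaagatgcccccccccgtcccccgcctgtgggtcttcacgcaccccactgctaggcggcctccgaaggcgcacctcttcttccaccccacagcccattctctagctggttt

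Across the 45 proteasome genes the shift in Fmr1-KO was small and mostly downward. In the quasi-likelihood test of edgeR, with p-values adjusted over all tested genes (Benjamini-Hochberg), 9 genes were lower at an adjusted p under 0.05, none was higher and 36 did not pass. The share called lower, 20%, was close to the 21.9% of all tested genes called lower. The count of higher calls was 0 where 20.7% of all tested genes were called higher. At an unadjusted p under 0.05, 14 members were lower and 1 was higher (Psmg2), against 4224 lower and 4155 higher of the 16976 tested genes. DESeq2 called 8 members lower and 0 higher, against 3199 lower and 2667 higher of the same 16976 genes. Among the 8542 tested genes with a mean level between 14.8 and 177 CPM, the 10th and 90th percentiles of the members, 25.1% were called lower and 24.5% higher; this range was set after the data were seen. The log2 fold-change was below 0 for 38 of the 45 (84.4%), against 48.7% of all tested genes, and its median was -0.05, or 3.53% lower, against 0.01 for all tested genes. The 3 WT and the 3 Fmr1-KO libraries did not overlap for 17 members that were lower and 1 that was higher. Over all tested genes, 26.3% did not overlap on the lower side and 25.4% on the higher side. Only Psmb8 and Psmb10 differed by 1.2-fold or more, 4.44% of the members, against 32.1% of all tested genes. Both medians and the count of members below 0 depended on the scaling. With library totals in place of TMM factors the members' median was -0.02 and that of all tested genes was 0.03. With those totals 32 of the 45 were below 0, and with upper-quartile normalization 35. A change of scaling moves all genes by nearly the same amount, so it could not test the gap between the medians.

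**Figure D1:**
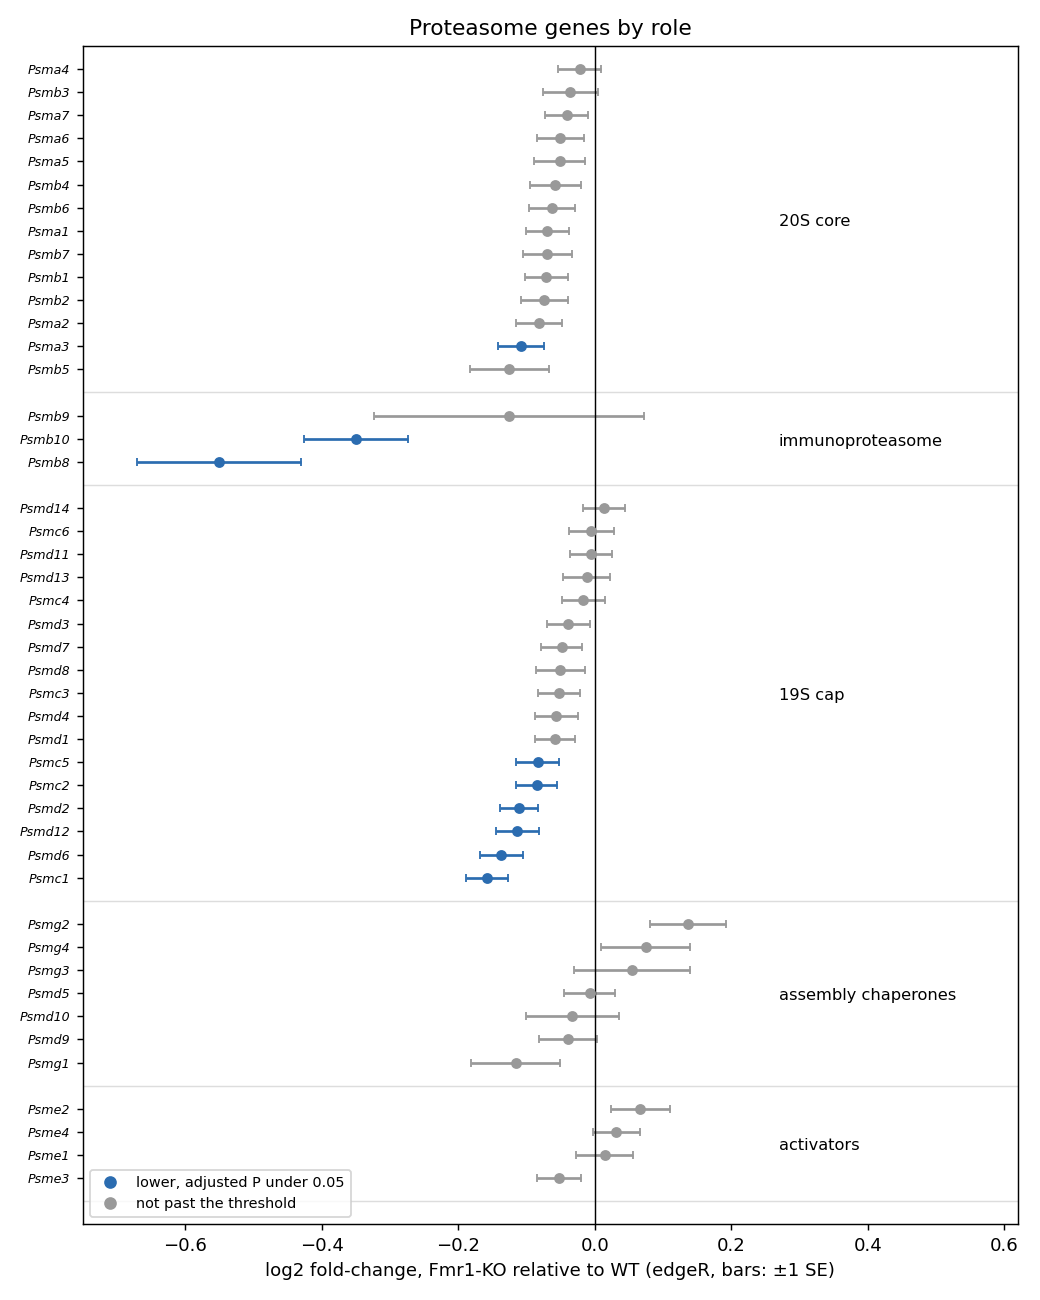
Log2 fold-change of each of the 45 proteasome genes in Fmr1-KO relative to WT (x axis; points are edgeR estimates from 3 libraries per genotype, bars ± 1 SE), grouped by role, with genes past the threshold in blue. All 14 core genes and 16 of 17 cap genes lie left of 0, and Psmb8 and Psmb10 lie farthest from it.

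The 14 constitutive genes of the 20S core were all below 0, between -0.12 and -0.02 (median -0.07). Of them 1 fell (7.14%, against 21.9% of all tested genes), and 13 did not pass the test. At an unadjusted p under 0.05 there were 6 lower and 0 higher, against 4224 lower and 4155 higher of the 16976 tested genes. DESeq2 called 1 lower and 0 higher, against 3199 lower and 2667 higher of those genes. Psma3, an alpha ring subunit (chromosome 12, 70974621 to 70996347 on GRCm38), was at 127, 124 and 126 CPM in WT and at 116, 113 and 121 CPM in Fmr1-KO. The groups did not overlap, and the log2 fold-change was -0.11 ± 0.03 (SE; adjusted p = 0.0139). The call was narrow: with library totals in place of TMM factors the adjusted p was 0.0620, and it was 0.0533 when WT replicate 1 was left out, 0.0530 for Fmr1-KO replicate 1 and 0.0537 for Fmr1-KO replicate 2. In the annotation, 13.4% of the 100-base windows of Psma3 exons also occur in another gene, so some of its reads may not be assigned uniquely. Psma2 (-0.08, adjusted p = 0.0563; 0.0326 without WT replicate 2), Psma1 (-0.07) and Psma5 (-0.05) were the other alpha genes whose libraries did not overlap, and Psma4 was nearest to 0 at -0.02.

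In the beta ring none of the 7 genes passed the test, where 21.9% of all tested genes were called lower and 20.7% higher. The catalytic subunits were Psmb5, which cuts after hydrophobic residues, at -0.12 ± 0.06 (SE; adjusted p = 0.0866), Psmb7, which cuts after basic residues, at -0.07 (adjusted p = 0.128), and Psmb6, which cuts after acidic residues, at -0.06 (adjusted p = 0.147). Psmb5 was at 32.6, 36.4 and 35.7 CPM in WT and 34.6, 29.6 and 31.8 CPM in Fmr1-KO, so the groups overlapped, and 22.2% of its exon windows are shared with another gene. Psmb5 passed only without WT replicate 1 (adjusted p = 0.0351) or Fmr1-KO replicate 1 (0.0213). Psmb1 (-0.07, adjusted p = 0.0729) was the beta gene whose libraries did not overlap. For the ring of beta genes, 3 were lower and 0 higher at an unadjusted p under 0.05, and DESeq2 called 0.

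The largest changes were those of the immunoproteasome genes Psmb8 and Psmb10. Psmb8 (chromosome 17, 34197721 to 34201454), the inducible counterpart of Psmb5, was at 6.82, 5.20 and 7.34 CPM in WT and at 4.12, 4.44 and 4.66 CPM in Fmr1-KO. All 3 Fmr1-KO libraries were below all 3 WT libraries, and WT replicate 2 was the lowest of its group. Psmb8 fell by 0.55 on the log2 scale (SE 0.12, adjusted p = 0.000813), or 31.7%. Its counts were 172 to 245 per library in WT and 134 to 162 in Fmr1-KO, and 8.05% of its exon windows are shared with an overlapping gene model, Gm20496.

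Psmb10 (chromosome 8, 105935735 to 105938444), the counterpart of Psmb7, was at 14.8, 15.1 and 16.4 CPM in WT and at 13.1, 10.8 and 12.4 CPM in Fmr1-KO. These groups did not overlap either, and Psmb10 fell by 0.35 on the log2 scale (SE 0.08, adjusted p = 0.000772), or 21.5%. Psmb9, the counterpart of Psmb6 and the neighbour of Psmb8 in the MHC region, had 58, 40 and 51 counts in WT and 35, 49 and 48 counts in Fmr1-KO (means of 1.47 and 1.35 CPM). Its groups overlapped (log2 fold-change -0.13 ± 0.20 SE, adjusted p = 0.649), and at so few counts a change of the size seen in Psmb10 was not detectable at this depth. Beside the whole table, Psmb8 was the only member called when the test asked for a change above 1.2-fold (adjusted p = 0.0268).

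Levels of the immunoproteasome genes were also set against those of the subunits they replace, each per kilobase of exon. The ratio of Psmb10 to Psmb7 was 19.95% ± 0.668 (SD, n = 3) in WT and 16.4% ± 0.807 in Fmr1-KO, lower in all 3 Fmr1-KO libraries. In a two-sided exact permutation test p was 0.1, the smallest that 3 against 3 libraries allow (Benjamini-Hochberg 0.4 over the 4 ratios tested). The ratio of Psmb8 to Psmb5 was 4.94% ± 0.992 in WT and 3.69% ± 0.450 in Fmr1-KO (exact p = 0.3), and that of Psmb9 to Psmb6 was 0.368% ± 0.0544 and 0.357% ± 0.0840 (exact p = 0.9). The fourth ratio was that of Psme1 to Psme2, the alpha and beta subunits of PA28, which assemble into one ring. It was 122% ± 3.73 in WT and 118% ± 6.77 in Fmr1-KO (exact p = 0.6), so the groups were not told apart.

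Markers of other cells moved with the genotype beside these genes. Microglia, brain cells with high levels of immunoproteasome and antigen-presentation genes, are a cell type such cultures can hold. Of 10 microglia markers, 8 fell in Fmr1-KO, with log2 fold-changes from -0.32 (Cx3cr1) to -1.13 (C1qb), and their summed level was 239 to 265 CPM in WT and 141 to 157 CPM in Fmr1-KO. Tmem119 (0.04) and Ptprc (-0.13) did not pass, and no marker was at 0. Their part in the lower Psmb8 and Psmb10 was not tested, and in bulk RNA fewer cells of a type cannot be told apart from less RNA per cell. Among 10 genes of MHC class I presentation, B2m, its light chain, fell (-0.19, adjusted p = 0.0011), whereas Erap1, which trims peptides (0.24), and Tapbp, which loads them (0.16), rose. Tap1 (-0.11, adjusted p = 0.231) and Tap2 (-0.13, adjusted p = 0.177), the peptide transporters encoded beside Psmb9 and Psmb8, did not pass.

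**Figure D2:**
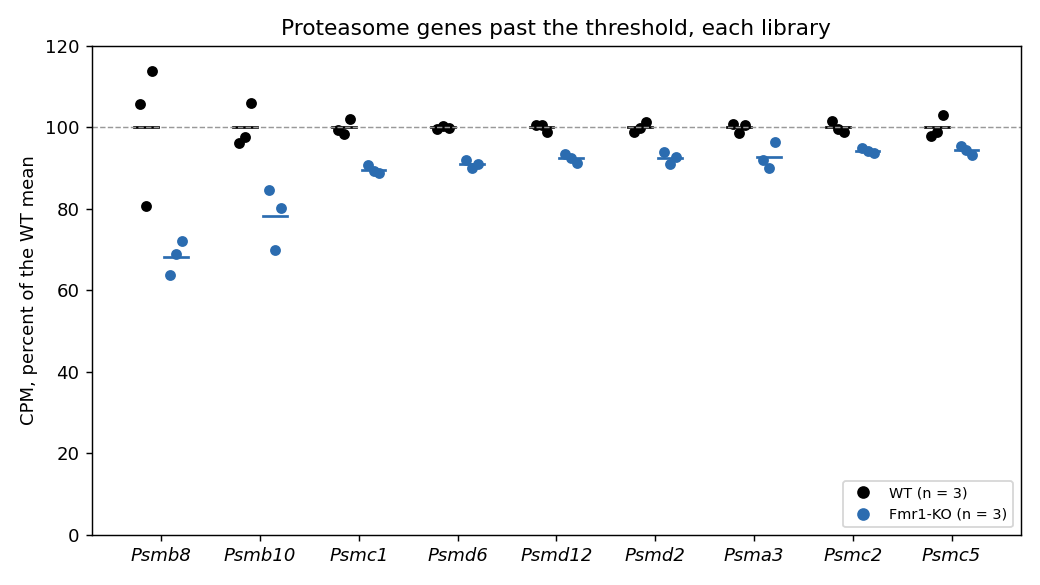
Level of the 9 proteasome genes past the threshold in each library, in CPM as a percent of the WT mean (y axis from 0; black points 3 WT, blue points 3 Fmr1-KO, lines group means). All Fmr1-KO points lie below all WT points for each gene, with the widest gaps for Psmb8 and Psmb10, whose Fmr1-KO means were 31.7% and 21.5% lower by the fitted fold-change.

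In the 19S cap 6 of 17 genes fell in Fmr1-KO and 11 did not pass the test (35.3% lower, against the 21.9% of all tested genes and the 25.1% of genes at similar levels). The log2 fold-changes ran from -0.16 to 0.01 with a median of -0.05, and the one above 0 was that of Psmd14. DESeq2 called 5 lower and 0 higher, and at an unadjusted p under 0.05 there were 6 lower and 0 higher.

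The 6 ATPases, which form one ring that unfolds and threads the substrate, gave 3 of these calls. Psmc1 (chromosome 12, 100110154 to 100123405) was at 181, 179.9 and 187 CPM in WT and 166, 163 and 162 CPM in Fmr1-KO. Its groups were far apart for their spread, and Psmc1 fell by 0.16 on the log2 scale (SE 0.03, adjusted p = 0.00025), or 10.3%. Psmc2 (-0.08, adjusted p = 0.0287) and Psmc5 (-0.08, adjusted p = 0.0406) also fell, without overlap between groups, but both calls were narrow. That of Psmc2 was lost without WT replicate 1 (adjusted p = 0.115), Fmr1-KO replicate 1 (0.0552) or Fmr1-KO replicate 3 (0.0803), and that of Psmc5 without WT replicate 3 (adjusted p = 0.196) or any 1 of the Fmr1-KO libraries (0.0561 to 0.123) and with DESeq2 (0.0528). Psmc3 (-0.05), Psmc4 (-0.02) and Psmc6 (0.00) did not pass.

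Of the other base subunits, Psmd2, the scaffold that receives ubiquitin-like domains, was the most abundant member in CPM. It was at 402, 406 and 411 CPM in WT and at 382, 369.6 and 377 CPM in Fmr1-KO, and it fell by 0.11 (SE 0.03, adjusted p = 0.00312). The partner scaffold Psmd1 (-0.06, adjusted p = 0.123) and the ubiquitin receptor Psmd4 (-0.06, adjusted p = 0.163) had libraries that did not overlap but did not pass.

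In the lid, Psmd6 (chromosome 14, 14112174 to 14120984) was at 123.9, 124.7 and 124.1 CPM in WT and at 114, 112 and 113 CPM in Fmr1-KO. The WT libraries differed among themselves by less than 1 CPM, and Psmd6 fell by 0.14 (SE 0.03, adjusted p = 0.00126), to a level 9.06% lower. Psmd12 (chromosome 11, 107479484 to 107504362) was at 123, 123 and 121 CPM in WT and at 114.8, 113.5 and 112.0 CPM in Fmr1-KO. It fell by 0.11 (SE 0.03, adjusted p = 0.00623), again without overlap. The other 6 lid genes lay between -0.05 (Psmd8) and 0.01 (Psmd14, the deubiquitinase, 157 ± 2.80 CPM in WT and 158 ± 0.696 CPM in Fmr1-KO, SD, n = 3).

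No gene for an activator passed the test (0 at an unadjusted p under 0.05, 0 by DESeq2), and the groups overlapped for all 4. Of all tested genes, 21.9% were called lower and 20.7% higher. The PA28 subunits Psme1 and Psme2 were at 0.01 (adjusted p = 0.813) and 0.07 (adjusted p = 0.228). Psme3, the nuclear PA28 gamma, was at -0.05 (adjusted p = 0.209), and Psme4, the large activator PA200, at 0.03 (adjusted p = 0.491). Of the Psme2 exon windows, 18.4% also occur in Psme2b, a near copy with a mean of 9.83 counts.

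Among the 7 assembly chaperones, which help to build the particle and are not part of it, none passed (0 lower and 1 higher at an unadjusted p under 0.05, 0 by DESeq2). The shares of all tested genes were 21.9% called lower and 20.7% called higher. The chaperones of the cap base, Psmd5, Psmd9 and Psmd10, were between -0.04 and -0.01. Of the core chaperones, Psmg2 was at 20.6, 20.7 and 21.0 CPM in WT and at 23.5, 21.8 and 23.2 CPM in Fmr1-KO. It was the one member with every Fmr1-KO library above every WT library (log2 fold-change 0.14 ± 0.06 SE, adjusted p = 0.0544), and it passed without Fmr1-KO replicate 2 (adjusted p = 0.0307). Psmg1, its partner in a dimer that lays out the alpha ring, was at -0.12 ± 0.07 (adjusted p = 0.167; 0.0457 without WT replicate 3), and Psmg3 and Psmg4, the other dimer, were at 0.05 and 0.07. Psmd10 is X-linked (-0.03, adjusted p = 0.738), and Xist, the RNA of the inactive X chromosome, was at 306 ± 7.34 CPM (SD, n = 3) in WT and 916 ± 96.4 CPM in Fmr1-KO, while 3 of 4 Y-linked genes fell. A different share of female pups in the libraries was not tested as a source of any change.

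Summed over roles, the core was at 1829 to 1874 CPM in the WT libraries and 1716 to 1816 CPM in the Fmr1-KO libraries, and its mean was 4.30% lower. The cap was at 2951 to 2992 CPM in WT and 2813 to 2871 CPM in Fmr1-KO (4.28% lower). Both groups of libraries were apart, as were those of the immunoproteasome genes, at 21.5 to 25.2 CPM and 16.8 to 18.4 CPM (23.6% lower). The chaperones (190.1 to 194 CPM and 189 to 198 CPM) and the activators (392 to 395 CPM and 391 to 401 CPM) overlapped. All 45 genes together took between 0.518% and 0.542% of the counts of a library. Relative to the WT mean, the median log2 level of the members was between -0.02 and 0.02 in the WT libraries and at -0.02, -0.08 and -0.05 in Fmr1-KO replicates 1, 2 and 3. Fmr1-KO replicate 1 thus lay near the lowest WT library, and replicate 2 was the lowest. Without replicate 2 the median fold-change of the members was -0.03.

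**Figure D3:**
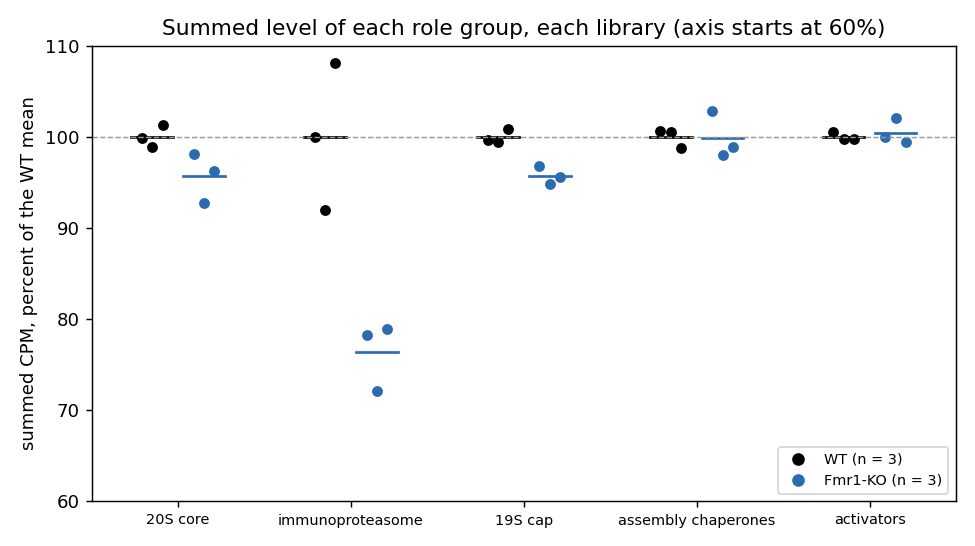
Summed level of each role group in each library, in CPM as a percent of the WT mean (y axis starts at 60%; black points 3 WT, blue points 3 Fmr1-KO, lines group means). The Fmr1-KO libraries lie below the WT libraries for the core, the cap and the immunoproteasome genes, and overlap with them for the assembly chaperones and activators.

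The levels of the members were compared with each other per kilobase of exon. In WT the 14 core genes ran from 30.4 CPM per kilobase (Psmb3) to 128 (Psma6), a 4.19-fold range with a median of 47.7, and the 17 cap genes from 20.1 (Psmd11) to 108 (Psmc5), a 5.37-fold range. Psma6 was followed by Psmb6 (109) and Psmb2 (107), whose WT libraries overlapped. Of the 13 pairs of neighbours in the order of the core genes, 5 had overlapping WT libraries, as had 5 of the 16 pairs in the cap. The activators lay between 19.2 (Psme4) and 42.3 (Psme3) CPM per kilobase and the chaperones between 2.91 (Psmg3) and 26.2 (Psmg4). Among the immunoproteasome genes Psmb10 was at 9.05, Psmb8 at 1.91 and Psmb9 at 0.401 CPM per kilobase. In Fmr1-KO the ends of the order were the same genes, Psmb3 and Psma6 in the core and Psmd11 and Psmc5 in the cap. The exon length sets this order in part. With the length of the longest transcript, the level relative to the median of all 45 genes moved by more than the spread of replicates for 43 of them.

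**Figure D4:**
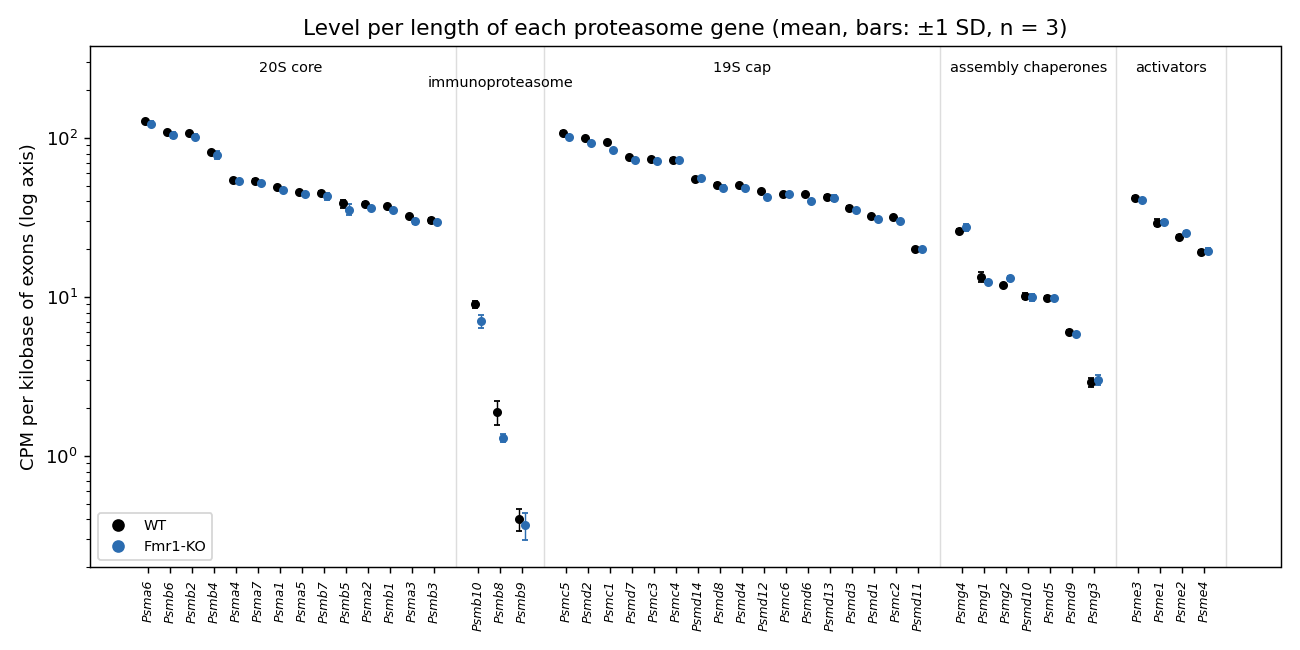
Level of each proteasome gene in CPM per kilobase of exon (y axis, log scale; points are means of 3 libraries, bars ± 1 SD, black WT, blue Fmr1-KO), in the order of WT within each role. Core and cap genes lie between 20.1 and 128 in WT, and the immunoproteasome genes between 0.401 and 9.05.

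Genes that work with the proteasome were read from the same fit. Of 13 further subunits and factors, 4 fell: Fbxo7, which binds the regulator Psmf1 (-0.32), Ube3c, a ligase on the proteasome (-0.19), Usp14, a deubiquitinase of the cap (-0.16, adjusted p = 0.000251), and Adrm1, a ubiquitin receptor of the base (-0.12, adjusted p = 0.0135). Sem1, the smallest lid subunit, rose (0.08, adjusted p = 0.0493), though DESeq2 did not call it. The core maturation factor Pomp (-0.03, adjusted p = 0.544) and the inhibitor Psmf1 (0.07, adjusted p = 0.253) did not pass. In the pathway that controls proteasome genes, Nfe2l1, which encodes NRF1, rose (0.10 ± 0.03 SE, adjusted p = 0.00736), from 209 ± 2.04 to 225 ± 3.04 CPM (SD, n = 3). Of its 14 genes, Nfe2l2 (0.11) and Foxo4 (0.18) rose as well, while the ligase Syvn1 (-0.14) and Stat3 (-0.11) fell. The groups overlapped for Syvn1, and DESeq2 called 2 genes of this list higher and 2 lower. For these lists and those below, 21.9% of all tested genes were called lower and 20.7% higher.

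Upstream of the proteasome, 2 of 6 ubiquitin and activating-enzyme genes fell, Uba1 (-0.13) and Ubb (-0.09), and Uba6, the alternative activating enzyme, rose (0.21). Of 9 ubiquitin receptors and shuttles, which carry substrates to the cap, 5 fell, led by Sqstm1 (-0.15), Ubqln1 (-0.14) and Ubqln4 (-0.13). The unfoldase VCP and its cofactors gave 0 calls among 10 genes (1 lower at an unadjusted p under 0.05, 0 by DESeq2). Among other assemblies of several subunits, all 8 subunits of the folding chaperonin CCT fell (median -0.10, from -0.23 in Cct6a to -0.08 in Cct2). Of 9 subunits of the COP9 signalosome, built on the same plan as the lid, 1 fell (Cops6, -0.10, with a median of -0.03 for the list).

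Markers of neurons, glia and dividing cells also moved with the genotype, and their values are given beside the results above; shares of cells were not measured. Of 8 neuron markers 7 fell, led by Nefl (-1.90), and Dcx rose, and the list summed to 4468 to 4564 CPM in WT and 3851 to 4040 CPM in Fmr1-KO. All 8 markers of proliferating cells rose (486 to 533 CPM in WT, 843 to 925 CPM in Fmr1-KO), as did 4 of 7 of neural progenitors. All 7 oligodendrocyte-lineage markers fell, and 4 of 7 astrocyte markers fell while Gja1 rose. Gfap was at 2649 CPM in WT although astrocytes had been depleted, and microglia and oligodendrocyte markers were counted too, so the cultures labelled cortical neurons also held RNA of glia. Excitatory and GABAergic markers each gave 3 lower and 3 higher of 6, and those of endothelial and mural cells 2 lower and 2 higher of 5. The part of these shifts in the levels of proteasome genes was not tested.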

How the data were processed

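Reads per gene were counted by the authors, who deposited raw counts: after trimming by FastP and alignment by STAR to GRCm38.p6, single-end reads in exons were summed per gene name with featureCounts in its reverse-stranded setting. The notes of the submitters list STAR 2.7.6a, Subread 2.0.1 and DESeq2 1.22.1. Antisense genes are kept apart by such counting, whereas reads that fit several similar copies of a gene are not resolved. Totals ran from 30348556 to 35126207 counts per library, and all 6 deposited columns matched a label. The 45 genes, their roles, the further lists and the alternatives were chosen with earlier results of these data known. Counts were fitted in edgeR 4.0.16 (R 4.3.3): filterByExpr, TMM factors, which were 0.990 to 1.01, glmQLFit and glmQLFTest with genotype as the only term, two-sided, Benjamini-Hochberg over 16976 genes, threshold 0.05. DESeq2 1.42.0 was an alternative. In simulated data made from these libraries the fit recovered 60%, 69.6% and 94% of genes changed by 0.25, 0.5 and 1 on the log2 scale among 16813 tested, and called 0.0602% of 16617 unchanged genes. The changed genes (50, 46 and 100) were far fewer than those called in the data, and no smaller change was simulated. The recovered shares need not hold for the data. Levels per length used exons of GENCODE M21 (GRCm38), which is not the release named by the authors and held 98.6% of tested genes. Promoters came from RefSeq on GRCm38. Named with their values are the called members with the 3 largest changes in each role, every member changed by 1.2-fold or more, from each list up to 4 called genes, and in addition Fmr1, Xist, Pomp, Adrm1, Sem1, Psmf1 and Nfe2l1; Psmb9, Psmb5, Psmc2, Psmc5, Psmd2, Psmg2, Psmd14, Cx3cr1, Dcx and Cct2 were added after their values were seen, as were the uncalled genes given by their fold-change.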

Additional observations from a re-analysis of the deposited data

How the results depend on the processing

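Of the 9 calls, those of Psmb8, Psmb10, Psmc1, Psmd2, Psmd6 and Psmd12 were made in all 14 alternatives other than the fold test; Psma3 was lost in 4, Psmc2 in 6 and Psmc5 in 8. With a tested fold change of at least 1.2, 1340 genes were called lower and 883 higher, and 1 member lower. Psmg2 was called higher, the 1 member to be so, under 4 alternatives: upper-quartile factors, library totals alone, the stricter filter, and without Fmr1-KO replicate 2. With library totals alone 6 members were called lower, the members' median was -0.0240, and the split of all calls was 3212 lower to 4207 higher. Leaving out 1 library at a time gave 7 to 10 members lower, 0 to 1 higher, a median of -0.0647 to -0.0344, and 3300 to 3569 genes lower and 2969 to 3307 higher. Of 629 values of single members, 576 stayed on the same side of 0 and of the threshold, 18 lost and 10 gained a call, and 25, all of uncalled genes, changed sign. With upper-quartile normalization these were Psmc6 (0.00588), Psmd11 (0.00528) and Psmd5 (0.00315), and with library totals alone Psma4 (0.00562), Psmc4 (0.0112), Psmc6 (0.0230), Psmd11 (0.0225), Psmd13 (0.0161) and Psmd5 (0.0204). Leaving out 1 library gave Psmd5 from -0.0360 to 0.00656, Psme1 from -0.0148 to 0.0573, Psmc6 from -0.0353 to 0.0151, Psmc4 from -0.0332 to 0.00251, Psmd11 from -0.0121 to 0.00396, Psmd10 from -0.0748 to 0.00376, Psmd13 from -0.0405 to 0.0149 and Psmb9 from -0.256 to 0.0120. The causes were not tested.

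A replicate block, the replicate number as a further term, gave 3694 lower and 3488 higher genes and 10 lower members, the added one being Psma2 (adjusted p = 0.0440); it changed no other call of a member. Deviations of same-numbered libraries correlated at -0.0289, 0.0323 and -0.0147 over genes, so no strong shared deviation was seen. The labels do not say whether same-numbered libraries have more than a number in common. The chaperones' median was 0.06 with the cap base chaperones counted in the cap. Differences of 0.05 on the log2 scale are near the SE of a single member (median 0.03), so most members could not be told from no change one by one.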
